A study of Homo sapiens with 6 samples.

Results

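The genes described here lie on the short arm of chromosome 20 and were followed along their position. Of 178 protein-coding rows on chromosome 20 with a start below 25 Mb on GRCh38, 67 were listed at 0 in all 6 libraries, 22 had fewer than 300 counts summed over the libraries, and 89 had 300 or more. These 89 genes are the members, out of 10671 protein-coding genes of the series with the same count minimum, and all 89 passed the filter on low counts. The members were chosen by position and summed counts, and the arm itself by its log2 fold changes in this same contrast, so counts over the members are given as a description beside those over all genes. Genes of a chromosome arm share a position and not a function. The short arm of chromosome 20 holds the SIRP receptor cluster near its tip, the cystatin cluster near its inner end, and housekeeping genes such as SNRPB, NOP56 and PCNA in between. EZH2 is the catalytic subunit of Polycomb repressive complex PRC2, which methylates lysine 27 of histone H3 at silent genes, and its targets are known as scattered genes and clusters on many chromosomes.

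Polyadenylated RNA was sequenced from HL-60, an established acute myeloid leukemia line of promyelocyte-like cells with a RAS mutation. In the EZH2 shRNA group the cells stably carried a lentiviral short hairpin RNA against EZH2 (3 libraries, numbered 1, 3 and 4 in their titles), and in the control group a lentiviral scrambled hairpin (3 libraries, numbered 3, 4 and 5). Both groups were selected with puromycin, freed of it 2 days before the experiment, and held for 24 hours in RPMI-1640 with 0.05% serum. The series design calls the lines knock-outs and the sample labels call them stable knockdowns. How many hairpins, clones or separate transductions stand behind a group is not said, so each p-value reflects the scatter among these libraries, and that scatter may be technical alone.

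Total counts were 50809853, 53199783 and 85074624 in EZH2 shRNA libraries 1, 3 and 4, and 39717343, 51622861 and 42103176 in control libraries 3, 4 and 5. EZH2 itself (ENSG00000106462, chr7:148807383-148884321, minus strand) was at 79.5, 83.2 and 77.3 CPM (counts scaled to library size) in the EZH2 shRNA libraries, against 147.6, 150.5 and 150.3 CPM in the control libraries, which is 53.5% of the control level (log2 fold change -0.90, SE 0.04, edgeR adjusted p = 3.22e-11). An exact two-sided permutation test gave p = 0.1, the smallest that 3 against 3 libraries allow. Markers of HL-60 cells were present in both groups, with 6 of 7 genes over 1 CPM and a summed level of 10282 to 10651 CPM in EZH2 shRNA libraries and 10158 to 10968 CPM in control libraries. Summed T cell, B cell, endothelial and erythroid markers stayed below 1 CPM in every library, and the defining genes MS4A1, DCN, COL1A2, CDH5, HBB and the 3 epithelial markers were at 0.

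Most members were slightly higher in the EZH2 shRNA libraries. Of the 89, 61 rose, 7 fell and 21 did not pass the test (edgeR quasi-likelihood test, adjusted p under 0.05 over 16859 genes). The members' shares were 68.5% and 7.87%, where 23.8% of all genes tested rose and 22.9% fell. Among the 10671 protein-coding genes with the same count minimum, 28.4% rose and 30.6% fell. The median log2 fold change of the members was 0.25, a 1.19-fold higher level, with quartiles of 0.11 and 0.43, while the median over all genes tested was 0.01 with quartiles of -0.22 and 0.25. For 63 members every EZH2 shRNA library was above every control library and for 8 members below, shares of 70.8% and 8.99% beside 27.9% and 27% of all genes tested. Over the 10671 protein-coding genes with the same minimum these shares were 31.9% and 34.4%. The rise was shallow, since 70 members had a log2 fold change between 0 and 1 and 7 were past 1 in size. The 21 members that did not pass lay between -0.38 (SIRPG) and 0.58 (CRLS1). In bulk RNA, a changed number of cells that express a gene and a changed amount of RNA per cell cannot be told apart.

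The 3 EZH2 shRNA libraries carried the shift to a like degree. Set against the mean of the controls on the log2 CPM scale, the median difference over the 89 members was 0.27 in EZH2 shRNA library 1, 0.26 in library 3 and 0.24 in library 4, and 75, 71 and 76 members were above the control mean in these libraries. Each control library set against the mean of the other 2 controls gave medians of 0.01, -0.02 and -0.01 for libraries 3, 4 and 5, with 52, 35 and 38 members above. The members' median was further from 0 in every EZH2 shRNA library than in any control library. The arm was chosen for its fold changes in these same libraries, and the EZH2 shRNA libraries share the same control mean. This order is thus a description. Chromosome 20 genes past the arm showed no such rise, with medians of -0.08, -0.08 and -0.10 in EZH2 shRNA libraries 1, 3 and 4.

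**Figure D1:**
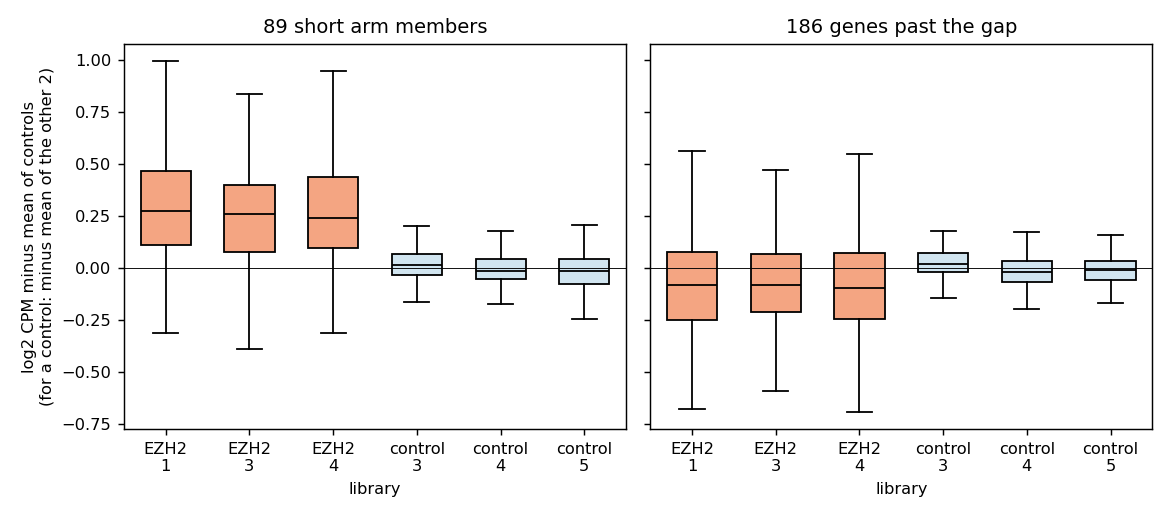
Box plots of the difference in log2 CPM of each library over the 89 short arm members and over the 186 chromosome 20 genes past the gap without qualifying genes, with lines at the medians, boxes over the quartiles and outlying genes not drawn, EZH2 shRNA libraries left (against the mean of the 3 controls) and control libraries right (each against the mean of the other 2). The members' medians are 0.27, 0.26 and 0.24 in the EZH2 shRNA libraries and between -0.02 and 0.01 in the control libraries.

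Along the arm the raised level began with the first gene. In windows of 5 Mb and segments of at least 10 genes it did not step down before the 25 Mb limit. In windows of 5 Mb the median log2 fold change was 0.24 from 0 to 5 Mb (44 genes), 0.24 from 5 to 10 Mb (12 genes), 0.36 from 10 to 15 Mb (8 genes), 0.28 from 15 to 20 Mb (14 genes) and 0.35 from 20 to 25 Mb (11 genes). The median of each of these windows was thus above 0.05, the upper quartile of the genes past the gap. When the members were cut into segments of at least 10 genes by their log2 fold changes, the best description was 1 segment, from C20orf96 (start 270863) to APMAP (start 24962925). No end of the raised stretch lay among the members. Runs of fewer genes could not be found this way. SIRPB2, SIRPB1, SIRPG and SIRPA follow each other with log2 fold changes of -1.20, -0.52, -0.38 and -0.06, and the neighbours TRIB3 and RBCK1 both fell.

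The raised stretch went on past the limit to the last genes before the centromere. Between 25 Mb and a gap of 5.82 Mb without qualifying genes, which holds the centromere, lay 7 more protein-coding genes, of which 5 rose and none fell, with a median log2 fold change of 0.52. The last 5 members inside the limit were GZF1 (0.08), NAPB (0.43), CST3 (3.85), CST7 (0.11) and APMAP (0.56), and the first 5 outside were ACSS1 (0.02), ENTPD6 (0.59), PYGB (0.60), ABHD12 (0.18) and GINS1 (0.11), so the limit of 25 Mb marked no change in level. ENTPD6, a nucleotide-hydrolysing enzyme of the secretory pathway, was at 102.6, 106.1 and 103.9 CPM in the EZH2 shRNA libraries, against 71.7, 67.0 and 68.7 CPM in the control libraries. ZNF337 (start 25673195), a zinc finger gene and the last before the gap, was at 24.2, 26.2 and 23.3 CPM in the EZH2 shRNA libraries, against 16.7, 15.4 and 17.1 CPM in the control libraries. The groups did not overlap for either gene.

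Past the gap the level was slightly below 0. The first gene on the other side, HM13 (start 31514410), the signal peptide peptidase of the endoplasmic reticulum, was at 121, 129 and 124 CPM in the EZH2 shRNA libraries, against 130.4, 134 and 125 CPM in the control libraries, and the groups overlapped. The next 4 were BCL2L1 (-0.10), TPX2 (-0.30), PDRG1 (-0.10) and TM9SF4 (-0.04), of which TPX2, a spindle assembly factor, fell (edgeR adjusted p = 5.52e-06). Over the 186 genes of the long arm 29 rose and 74 fell, with a median log2 fold change of -0.09 and quartiles of -0.23 and 0.05. In the window from 30 to 35 Mb, 1 of 32 genes rose and 13 fell, with a median of -0.08, and the medians of the 6 later windows lay between -0.12 and -0.06.

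Segmentation of all 282 chromosome 20 genes gave 2 segments, the first from C20orf96 to ZNF337 (96 genes, median 0.25) and the second from HM13 to PCMTD2 (186 genes, median -0.09). The same 2 segments came out of each EZH2 shRNA library alone against the control mean, with first-segment medians of 0.28, 0.26 and 0.24 and second-segment medians of -0.08, -0.08 and -0.10 for libraries 1, 3 and 4. Each control library against the other 2 gave 1 segment for the whole chromosome, with medians of 0.02, -0.02 and -0.01. The step is read from the same fold changes that it describes, so no test is attached to it.

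**Figure D2:**
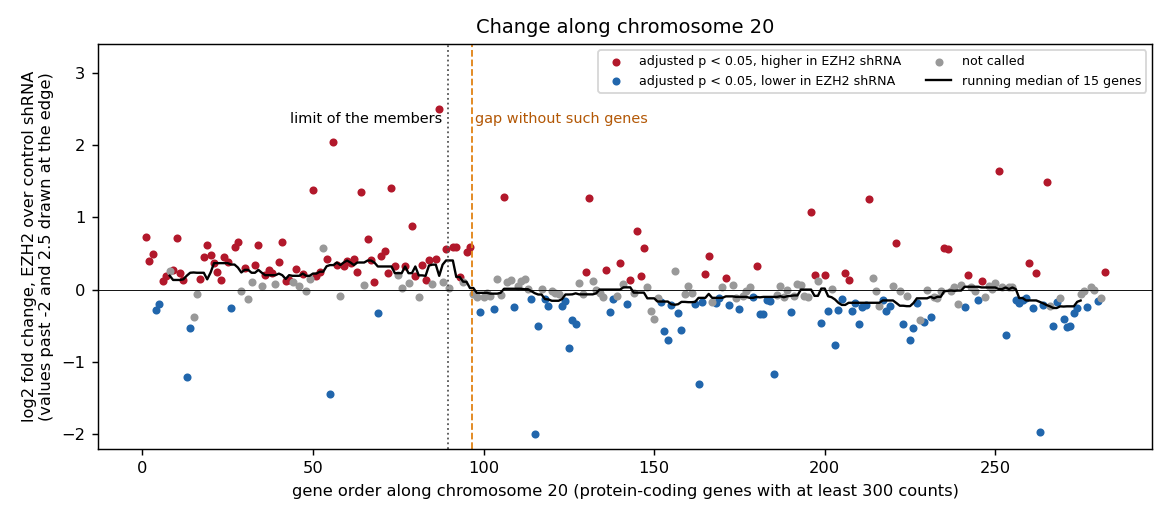
Log2 fold change (EZH2 shRNA over control) of the 282 protein-coding genes of chromosome 20 with at least 300 counts, in their order along the chromosome, each point a gene, coloured by its call, with values past -2 and 2.5 drawn at the edge and a running median of 15 genes as a line. The line lies above 0 from the first genes to the dashed mark of the gap and slightly below 0 after it.

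Other chromosomes gave a scale for the arm. Among protein-coding genes with the same count minimum, the median log2 fold change was 0.22 on chromosome 13 (191 genes, 121 higher and 13 lower), 0.16 on chromosome 17 and 0.08 on chromosome 19. At the other end it was -0.27 on chromosome 11 and -0.32 on chromosome 2, where 496 of 712 genes fell. The short arm members had a higher median than any whole autosome, though chromosome 13 was close. This sets an arm chosen for its fold changes against whole chromosomes, and chromosome 20 as a whole had a median of 0.02. No arm of another chromosome was measured, so the rank does not extend to arms. No difference between chromosomes was tested.

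**Figure D3:**
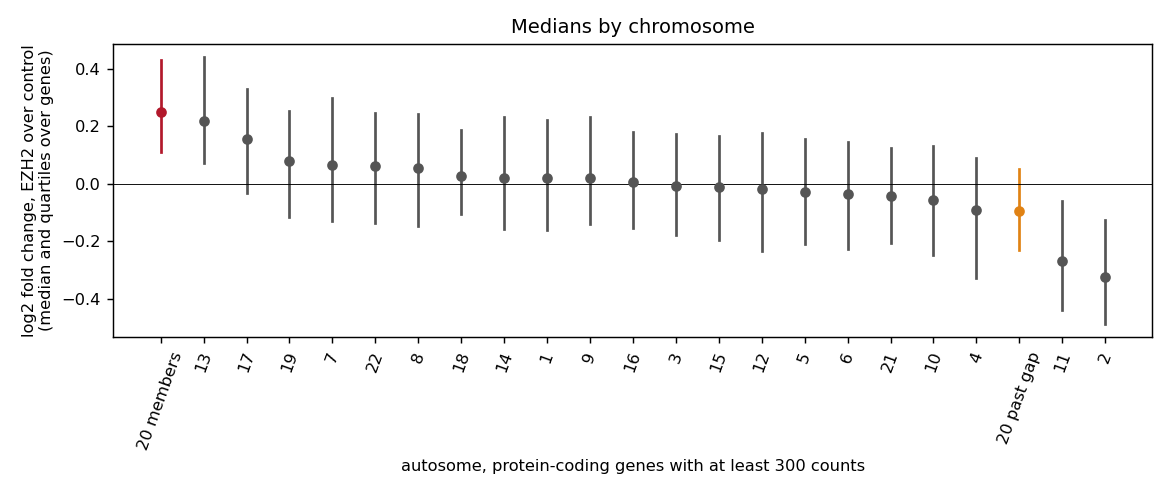
Median log2 fold change (EZH2 shRNA over control) of protein-coding genes with at least 300 counts, per autosome and for the short arm members and the chromosome 20 genes past the gap, with points at the medians and bars over the quartiles of the genes. The members are at 0.25, chromosome 13 at 0.22 and chromosome 2 at -0.32.

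CST3, which encodes cystatin C, a secreted inhibitor of cysteine cathepsins, changed most (ENSG00000101439, chr20:23626706-23638473, minus strand). It was at 10.3, 11.5 and 11.2 CPM in EZH2 shRNA libraries 1, 3 and 4, against 0.709, 0.729 and 0.848 CPM in control libraries 3, 4 and 5. All EZH2 shRNA libraries were far above all control libraries, a 14.4-fold higher level (log2 fold change 3.85, SE 0.13, edgeR adjusted p = 6.99e-13). CST7, another cystatin gene of the same end of the arm, was at 10.8, 11.1 and 10.8 CPM in EZH2 shRNA libraries and 10.3, 10.1 and 9.85 CPM in control libraries, and did not pass the test (edgeR adjusted p = 0.244). The other 2 cystatin genes of the gene groups, CST1 and CSTL1, were listed at 0.

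A further 4 members were more than 2-fold higher. Of these, ANKEF1, DZANK1 and MACROD2 reached the count minimum through the EZH2 shRNA libraries, where they are high. Their counts in control libraries 3, 4 and 5 were 25, 21 and 15 (ANKEF1), 25, 55 and 38 (DZANK1) and 29, 47 and 40 (MACROD2). The same holds for CST3, with 28, 38 and 36. Their place among the members thus rests in part on the rise itself. ANKEF1, named for its ankyrin repeats and EF-hand, was at 2.09, 1.96 and 1.68 CPM in the EZH2 shRNA libraries, against 0.633, 0.403 and 0.353 CPM in the control libraries (log2 fold change 2.05, SE 0.24, edgeR adjusted p = 2.47e-06). DZANK1, named for zinc ribbon and ankyrin repeat domains, was at 2.35, 2.69 and 1.97 CPM in the EZH2 shRNA libraries, against 0.633, 1.06 and 0.896 CPM in the control libraries (log2 fold change 1.41, SE 0.21). These 2 genes were low in both groups, and their groups did not overlap. CHGB, which encodes chromogranin B of neuroendocrine secretory granules, was at 8.30, 8.25 and 8.04 CPM in the EZH2 shRNA libraries, against 2.86, 3.8 and 2.71 CPM in the control libraries (log2 fold change 1.38, SE 0.12, edgeR adjusted p = 9.78e-08). MACROD2, a very long gene for a mono-ADP-ribose hydrolase, was at 2.49, 1.88 and 2.25 CPM in the EZH2 shRNA libraries, against 0.734, 0.902 and 0.943 CPM in the control libraries (log2 fold change 1.35, SE 0.19). MACROD2 contains the processed pseudogene RPS10P2 on its own strand, and how reads were divided between them is not known.

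Below these, the increase was less than 2-fold. NAA20, the catalytic subunit of the amino-terminal acetyltransferase NatB, was at 54.3, 44.3 and 52.6 CPM in the EZH2 shRNA libraries, against 28.1, 26.2 and 27.6 CPM in the control libraries (log2 fold change 0.89, SE 0.07, edgeR adjusted p = 1.11e-07). DSTN, the actin-severing protein destrin, was at 52.3, 50.3 and 47.6 CPM in the EZH2 shRNA libraries, against 32.1, 29.8 and 30.5 CPM in the control libraries (log2 fold change 0.70, SE 0.05). C20orf96, the first member of the arm, rose by 0.73 on the log2 scale, and LZTS3, a leucine zipper protein of synapses, by 0.67. SDCBP2, the PDZ protein syntenin-2, rose by 0.71 and was low in both groups, at 1.65, 1.44 and 1.3 CPM in the EZH2 shRNA libraries and 0.886, 0.978 and 0.778 CPM in the control libraries. SDCBP2 too reached the count minimum through the EZH2 shRNA libraries. Its opposite-strand neighbour SDCBP2-AS1 had a log2 fold change of 0.71 that did not pass the test (edgeR adjusted p = 0.0581), and reads of the 2 cannot be told apart without the strand setting of the counting.

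The 7 members that fell included the neighbours TRIB3 and RBCK1 and the neighbours SIRPB2 and SIRPB1. LAMP5, a lysosome-associated membrane protein known from plasmacytoid dendritic cells and neurons (ENSG00000125869, chr20:9514358-9530524, plus strand), fell most. It was at 5.62, 6.05 and 5.91 CPM in the EZH2 shRNA libraries, against 14.8, 16.4 and 16.7 CPM in the control libraries (log2 fold change -1.44, SE 0.08, edgeR adjusted p = 5.31e-10). SIRPB2, of the SIRP family of immunoglobulin-like receptors, was at 1.06, 1.03 and 1.40 CPM in the EZH2 shRNA libraries, against 2.61, 3.26 and 2.26 CPM in the control libraries (log2 fold change -1.20, SE 0.19). SIRPB2 overlaps the more abundant NSFL1C on the same strand, and how reads were divided between them is not known. SIRPB1, an activating receptor of myeloid cells that signals through DAP12, was at 10.6, 10.3 and 11.0 CPM in the EZH2 shRNA libraries, against 16.1, 14.7 and 15.1 CPM in the control libraries (log2 fold change -0.52, SE 0.07). For LAMP5, SIRPB2 and SIRPB1 every EZH2 shRNA library was below every control library.

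The other 4 members that fell did so by less. TRIB3, a pseudokinase induced in the integrated stress response, was at 133, 138 and 134 CPM in the EZH2 shRNA libraries, against 169, 163 and 158 CPM in the control libraries (log2 fold change -0.28, SE 0.04, edgeR adjusted p = 1.87e-05). Its neighbour RBCK1, the HOIL-1 subunit of the linear ubiquitin ligase, had a log2 fold change of -0.20. MGME1, an exonuclease that maintains mitochondrial DNA, was at 20.4, 20.2 and 20.4 CPM in the EZH2 shRNA libraries, against 26.2, 24.6 and 25.4 CPM in the control libraries (log2 fold change -0.32, SE 0.06). UBOX5, a U-box ubiquitin ligase, had a log2 fold change of -0.25 (edgeR adjusted p = 0.0281), a call that was lost on leaving out EZH2 shRNA library 3, control library 3 or control library 4.

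**Figure D4:**
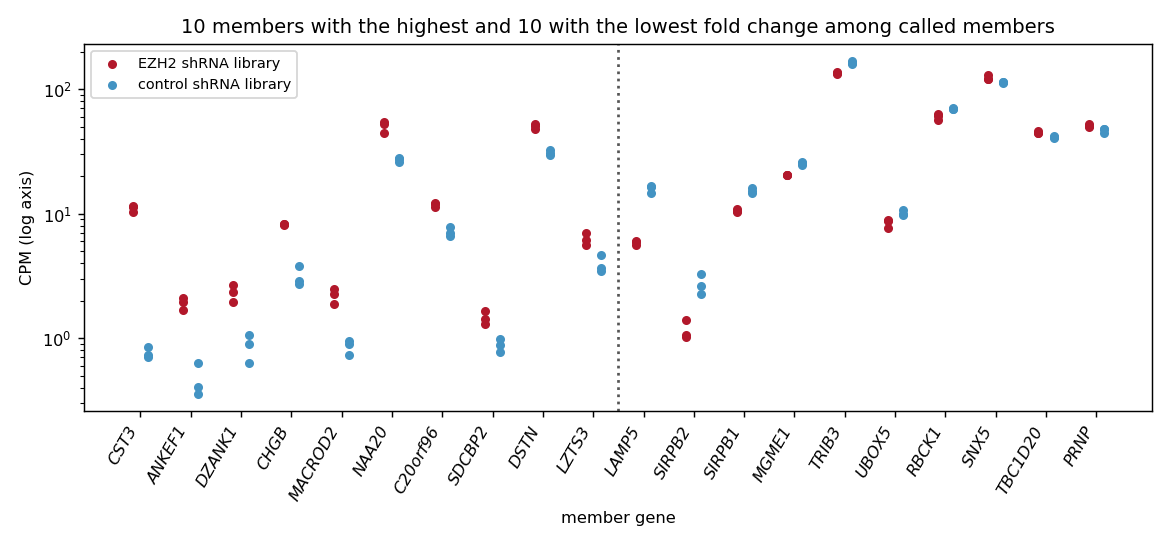
CPM on a log axis in each library for the 10 members with the highest and the 10 with the lowest fold change among those called, each point a library, EZH2 shRNA libraries left of the control libraries for each gene. CST3 stands at 10.3 to 11.5 CPM in the EZH2 shRNA libraries and at 0.709 to 0.848 CPM in the control libraries, whereas LAMP5 stands at 5.62 to 6.05 CPM and at 14.8 to 16.7 CPM.

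The start regions of 4 of these members are shown because they stand for the range of changes: the largest increase (CST3), the largest increase among members over 10 CPM in every library (NAA20), the member with the highest CPM (NOP56) and the largest decrease (LAMP5). Each runs from 250 bases before to 10 bases after the RefSeq gene start (GRCh38.p14), written 5′ to 3′ on the strand of the gene, and capitals mark matches on either strand to the ETS core CCGGAAG, to the GC box GGGCGG, or to the CCAAT box. On the other strand the GC box reads CCGCCC, while the last of the 3 reads ATTGG.
CST3, chr20:23637946-23638205, minus strand: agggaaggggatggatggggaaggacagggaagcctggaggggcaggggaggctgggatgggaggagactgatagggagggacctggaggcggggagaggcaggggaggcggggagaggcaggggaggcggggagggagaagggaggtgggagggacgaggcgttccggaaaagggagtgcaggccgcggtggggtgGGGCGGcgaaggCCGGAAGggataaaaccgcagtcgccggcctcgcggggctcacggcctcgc
NAA20, chr20:20017040-20017299, plus strand: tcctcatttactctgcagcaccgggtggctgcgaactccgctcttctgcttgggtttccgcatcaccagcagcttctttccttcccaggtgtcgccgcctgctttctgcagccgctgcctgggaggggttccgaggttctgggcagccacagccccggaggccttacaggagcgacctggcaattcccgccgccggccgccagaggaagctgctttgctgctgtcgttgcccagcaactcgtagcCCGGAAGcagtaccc
NOP56, chr20:2652382-2652641, plus strand: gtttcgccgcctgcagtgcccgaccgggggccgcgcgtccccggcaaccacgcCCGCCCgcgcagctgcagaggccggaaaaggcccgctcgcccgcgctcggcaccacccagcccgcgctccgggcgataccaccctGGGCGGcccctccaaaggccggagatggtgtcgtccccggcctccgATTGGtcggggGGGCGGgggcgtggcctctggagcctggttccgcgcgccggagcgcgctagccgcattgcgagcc
LAMP5, chr20:9514340-9514599, plus strand: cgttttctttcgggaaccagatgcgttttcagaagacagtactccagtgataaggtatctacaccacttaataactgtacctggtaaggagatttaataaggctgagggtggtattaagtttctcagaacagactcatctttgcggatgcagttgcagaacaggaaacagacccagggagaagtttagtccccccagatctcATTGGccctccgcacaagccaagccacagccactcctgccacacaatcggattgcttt
The CST3 stretch holds a GC box that begins 53 bases before the start and an ETS core that begins 41 bases before it, and NAA20 an ETS core 5 bases before the start. NOP56 holds 3 GC boxes and 1 CCAAT box, and LAMP5 a CCAAT box alone. The starts that RefSeq and the deposited table give differ for these genes, so the positions hold for the RefSeq start.

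Start regions of 71 of the 89 members were matched in RefSeq and searched over 300 bases, from 250 before to 50 after the start, for 5 short motifs on both strands. Their median GC content was 66%, against 65.3% over the 8567 matched protein-coding genes with the same count minimum and 58.7% over 35116 RefSeq start regions. The ETS core CCGGAAG was in 28.2% of member windows, against 21.4% of windows of genes with the count minimum and 10.3% of all windows. TATAAA was in none of the 71 member windows, against 5.14% and 11.5% of those wider sets. CCAAT was in 36.6% of member windows, against 37.1% and 34.6%, and GGGCGG in 67.6%, against 71.6% and 45.0%. TGACGTCA, the full cyclic AMP response element, was in 3 member windows, 4.23%, against 3.42% and 1.85%. Among these 3 are SNX5 and MGME1, whose windows overlap almost wholly, so the same match may be counted for both. Windows of other neighbours on opposite strands, such as TRMT6 and MCM8 with the ETS core, also overlap. The median log2 fold change was 0.35 in the 20 members with the ETS core and 0.28 in the 51 without, 0.34 in the 26 with the CCAAT box and 0.28 in the 45 without, and 0.29 in the 48 with the GC box and 0.28 in the 23 without. It was 0.11 in the 3 with TGACGTCA and 0.31 in the 68 without. A match of letters is a description and not a site.

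The gene groups are read against the 68.5% of all members that rose and the 7.87% that fell, and against the 23.8% and 22.9% of all genes tested. No group was tested against the rest of the arm. Of 8 members of RNA processing and transcription, 7 rose and none fell, with a median log2 fold change of 0.26. The XRN2 call was lost on leaving out EZH2 shRNA library 4 or control library 3 or 4. The TRMT6 call was lost on leaving out control library 3. NOP56, a core protein of box C/D small nucleolar ribonucleoproteins, was at 624, 594 and 623 CPM in the EZH2 shRNA libraries, against 425, 445 and 445 CPM in the control libraries (log2 fold change 0.49, SE 0.04, edgeR adjusted p = 7.54e-08). SNRPB, a core Sm protein of spliceosomal small nuclear ribonucleoproteins, was at 360.2, 335 and 336 CPM in the EZH2 shRNA libraries, against 262, 238 and 257 CPM in the control libraries (log2 fold change 0.45, SE 0.05). ESF1, a nucleolar ribosomal RNA processing factor, rose by 0.43 and POLR3F, a subunit of RNA polymerase III, by 0.32. SNRPB2, which binds U2 small nuclear RNA, had a log2 fold change of 0.07 and did not pass the test. NXT1, an mRNA export cofactor outside this group, rose by 0.41.

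Of the 5 members in replication and the cell cycle, 3 (60%) rose and none fell, with a median of 0.20, beside 68.5% of all members and 23.8% of all genes that rose. PCNA, the sliding clamp of DNA polymerases, had the highest mean level of the members, at 335 FPKM, the authors' unit per length of gene. PCNA was at 514, 451 and 478 CPM in the EZH2 shRNA libraries, against 472, 451 and 467 CPM in the control libraries, and the groups overlapped (log2 fold change 0.05, SE 0.05, edgeR adjusted p = 0.386). CDC25B, a phosphatase that activates cyclin-dependent kinases, was at 69.7, 69.0 and 67.6 CPM in the EZH2 shRNA libraries, against 60.2, 59.2 and 59.8 CPM in the control libraries, with no overlap. MCM8, a helicase of homologous recombination, rose by 0.25 and the centrosomal gene KIZ by 0.35, while CENPB, which binds centromeric repeats, had a log2 fold change of 0.05 and did not pass the test.

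Among 12 members of mitochondria and metabolism, 7 (58.3%) rose and 1, MGME1, fell, with a median of 0.27, beside 68.5% of all members and 23.8% of all genes that rose. The NDUFAF5 call was lost on leaving out EZH2 shRNA library 1 or 3 or control library 4 or 5. FASTKD5, which acts in mitochondrial RNA processing, was at 53.6, 51.9 and 52.1 CPM in the EZH2 shRNA libraries, against 36.6, 34.2 and 34.1 CPM in the control libraries (log2 fold change 0.59, SE 0.05, edgeR adjusted p = 4.15e-08). FASTKD5 and UBOX5 overlap on the same strand, and the overlapping genes moved in opposite directions. SMOX, which oxidises spermine, rose by 0.66, IDH3B, a subunit of the NAD-dependent isocitrate dehydrogenase, by 0.37, MRPS26, of the small mitochondrial ribosomal subunit, by 0.39, and ITPA, which clears inosine triphosphate, by 0.31. CRLS1, the cardiolipin synthase gene, had a log2 fold change of 0.58 that did not pass the test (SE 0.35, edgeR adjusted p = 0.234), with 2.37, 3.28 and 3.13 CPM in the EZH2 shRNA libraries and 1.32, 3.15 and 1.3 CPM in the control libraries. Control library 4 stood inside the range of the EZH2 shRNA libraries.

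Membrane traffic and cytoskeleton genes had 9 of 10 members higher and none lower, with a median of 0.21, where 68.5% of all members and 23.8% of all genes rose. Beside DSTN these were RRBP1, the ribosome-binding protein of the endoplasmic reticulum (0.41), NAPB, a SNAP protein that disassembles SNARE complexes (0.43), TMEM230 (0.28), AP5S1 (0.28), NSFL1C (0.14), VPS16 (0.14), TBC1D20 (0.12) and SNX5 (0.11). SEC23B, of the COPII coat, had a log2 fold change of 0.03 and did not pass the test. The calls for NSFL1C, AP5S1, VPS16, TBC1D20 and SNX5 were each lost on leaving out at least 1 library, and for VPS16, of the HOPS and CORVET complexes, on leaving out any of the 6. In ubiquitin, proteasome and proteolysis, 3 of 6 members rose and 2 fell, with a median of 0.13, where 23.8% of all genes rose and 22.9% fell. RNF24 (0.38), TASP1, the protease that cleaves KMT2A (0.38), and PSMF1, an inhibitor of the proteasome (0.28), were higher, and RBCK1 and UBOX5 were lower.

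Signalling genes had 7 of 9 members (77.8%) higher and 1, TRIB3, lower, with a median of 0.19, where 68.5% of all members and 23.8% of all genes rose. PTPRA, a receptor tyrosine phosphatase that activates SRC kinases, was at 113, 107 and 116 CPM in the EZH2 shRNA libraries, against 83.6, 81.4 and 82.0 CPM in the control libraries (log2 fold change 0.45, SE 0.04, edgeR adjusted p = 1.91e-07). ATRN, the attractin gene, rose by 0.35, MAVS, the mitochondrial adaptor of RIG-I-like receptors, by 0.24, CSNK2A1, a catalytic subunit of casein kinase 2, by 0.19, and STK35 and RASSF2 each by 0.14, the last 2 calls being lost on leaving out EZH2 shRNA library 4 or control library 4. RALGAPA2, a GTPase-activating subunit for RAL proteins, had a log2 fold change of -0.10 and did not pass the test. Zinc finger and other DNA-binding factors had 5 of 6 members (83.3%) higher and none lower, with a median of 0.45, where 68.5% of all members and 23.8% of all genes rose. Those higher were ZNF343 (0.61), KAT14, an acetyltransferase of the ATAC complex (0.54), SOX12 (0.50), ZCCHC3 (0.39) and ZNF133 (0.23), whose call was lost on leaving out EZH2 shRNA library 1 or 4 or control library 3 or 4. GZF1 (0.08) did not pass the test.

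The myeloid surface and secreted proteins were the group in which increases and decreases were equal in number. Of 14 listed genes 7 were members, of which CST3 and PRNP rose, SIRPB1 and SIRPB2 fell and SIRPA, SIRPG and CST7 did not pass the test, with a median of -0.06. The shares that rose and fell were 28.6% each, near the 23.8% and 22.9% of all genes tested. SIRPA, the inhibitory receptor for CD47, was at 60.7, 64.4 and 61.8 CPM in the EZH2 shRNA libraries, against 64.4, 62.5 and 67.5 CPM in the control libraries (edgeR adjusted p = 0.331). SIRPG, another CD47-binding member of the family, was at 0.964, 0.989 and 1.10 CPM in the EZH2 shRNA libraries, against 1.49, 1.19 and 1.32 CPM in the control libraries, a difference without overlap that did not pass the test (edgeR adjusted p = 0.137). The SIRP genes are close in sequence, so reads of 50 bases may be divided between them with uncertainty. PRNP, the prion protein gene, had a log2 fold change of 0.12, and its call was lost on leaving out any of the 6 libraries. CD93, THBD and SIGLEC1, also myeloid surface genes of the arm, were listed at 0.

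All 3 members among 19 listed neural or developmental genes rose, CHGB, MACROD2 and JAG1, where 68.5% of all members and 23.8% of all genes rose. MACROD2 reached the count minimum through the EZH2 shRNA libraries, where it is high. JAG1, a ligand of NOTCH receptors, was at 77.5, 83.3 and 83.8 CPM in the EZH2 shRNA libraries, against 63.8, 63.4 and 68.2 CPM in the control libraries (log2 fold change 0.33, SE 0.05, edgeR adjusted p = 2.04e-05). A further 3 of the listed genes had counts under the minimum and 13, among them PAX1, FOXA2, NKX2-2 and SNAP25, were listed at 0. Of 23 members in no group, 15 (65.2%) rose, near the share of all members, and 1, LAMP5, fell, with a median of 0.34. They include TMX4, a thioredoxin-related membrane protein (0.42), BTBD3, which shapes dendrites in neurons (0.40), and MKKS, a chaperonin-like protein mutated in McKusick-Kaufman syndrome (0.34). C20orf27 was at 103, 107 and 104 CPM in the EZH2 shRNA libraries, against 70.1, 66.6 and 68.2 CPM in the control libraries (log2 fold change 0.62, SE 0.04, edgeR adjusted p = 3.00e-09). APMAP, a membrane protein of adipocytes and the innermost member, was at 121, 115 and 117 CPM in the EZH2 shRNA libraries, against 79.3, 79.1 and 80.1 CPM in the control libraries, with no overlap.

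**Figure D5:**
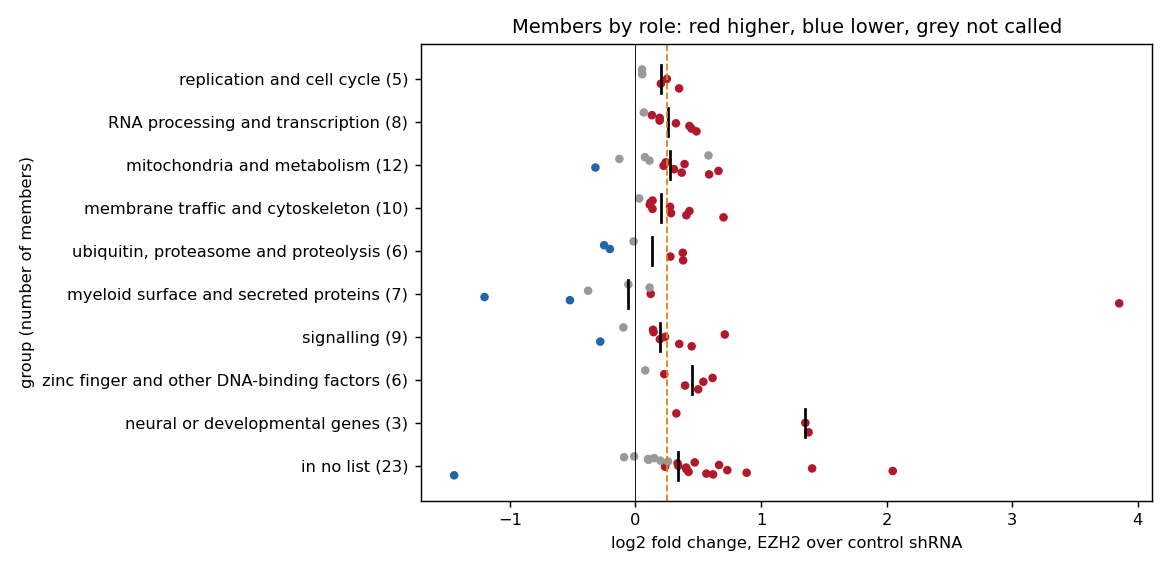
Log2 fold change (EZH2 shRNA over control) of the 89 members by gene group, each point a gene, coloured by its call, with the median of each group as a black line and that of all members dashed. Group medians lie between -0.06 for the 7 myeloid surface and secreted proteins and 1.35 for the 3 neural or developmental genes, with most groups between 0.13 and 0.45.

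The shift was present at low and high levels and on both strands. Ordered by mean FPKM, which ran from 0.133 for MACROD2 to 335 for PCNA, the 30 lowest members had 16 higher, 3 lower and a median of 0.27. Some of these 16, such as ANKEF1 and MACROD2, reached the count minimum through the EZH2 shRNA libraries. The 29 in the middle had 22 higher, 2 lower and a median of 0.22, and the 30 highest had 23 higher, 2 lower and a median of 0.32. The 47 members on the plus strand had a median of 0.26 and the 42 on the minus strand 0.24. Of the members, 13 overlap a gene on the other strand with at least 100 counts, and the 76 that do not had 51 higher, 7 lower and a median of 0.25.

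Members with neighbouring starts did not always move alike. Pairs on opposite strands were counted where the starts lay head to head within 1000 bases or overlapped by at most 200 bases. There were 6 such pairs of members, and in 3 of them both genes rose. The calls for TRMT6 and NDUFAF5 in these pairs were each lost on leaving out at least 1 library. PCED1A and VPS16, which both rose and whose starts overlap further, were not counted. SNX5 and MGME1, 38 bases apart, were called in opposite directions, with SNX5 at 129, 120 and 119 CPM in the EZH2 shRNA libraries, against 111, 113 and 115 CPM in the control libraries. That SNX5 call (log2 fold change 0.11, edgeR adjusted p = 0.033) was lost on leaving out EZH2 shRNA library 1 or any control library. In the pairs of CENPB with CDC25B and of PCNA with CDS2, 1 gene of each passed the test. DZANK1 and POLR3F, 108 bases apart, rose by 1.41 and 0.32. The difference in log2 fold change within a pair had a median of 0.18 and ran from 0.06 to 1.08.

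The members were also set against their own median, which by construction leaves about as many above as below it. With that median taken off the EZH2 shRNA libraries, 26 members were higher and 25 lower at an edgeR adjusted p under 0.05, and 38 did not pass. CST3 stood 3.6 above the level of the arm on the log2 scale, ANKEF1 1.80, NAA20 0.64, DSTN 0.45 and APMAP 0.32. SIRPA, which had not passed the test as it stood, was 0.31 below the level of the arm, PCNA 0.20 below and SEC23B 0.22 below. SNX5, TBC1D20 and PRNP, called higher as they stood, were lower on this scale, with differences of -0.14, -0.13 and -0.13. The level taken off comes from the same libraries and holds the genes compared with it, so these calls are a description.

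Some genes of the arm were left out by the rule for their counts or their kind. Just inside the count minimum stood SIRPG with 371 counts, SDCBP2 with 388 and ANKEF1 with 413, and just outside EBF4 with 289 (log2 fold change 0.43), CPXM1 with 177 (-1.36) and NRSN2 with 82 (0.41). Of 6 protein-coding genes under the minimum that were tested, C20orf202 rose and CPXM1, a carboxypeptidase-like gene, fell. Of 7 long noncoding and antisense genes, 3 rose and 1 fell, with a median of 0.69. The lincRNA AL133325.3 was at 0.261, 0.373 and 0.224 CPM in the EZH2 shRNA libraries, against 3.09, 2.88 and 3.25 CPM in the control libraries (log2 fold change -3.45, SE 0.22, edgeR adjusted p = 2.21e-09). The 22 pseudogenes of the stretch, whose reads can also come from parent genes elsewhere, had none higher, 3 lower and a median of -0.01.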

How the data were processed

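The authors deposited a table of raw counts per gene and a table of FPKM values, each with 1 column per library. Per the submitters' processing notes, STAR 2.5.2b, Picard 2.18.24, DESeq2 1.24.0, R 3.6.1 and the build GRCh38 were used; how reads were counted, with which annotation release and strand setting, is not given in the sources used here. Counts divided by DESeq2 size factors and then by the deposited FPKM values gave a constant per gene (29060 of 29060, tolerance 0.001). FPKM therefore rescales the same counts, and serves here to order genes by level and in the limma alternatives.

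CPM with TMM factors and fold changes (EZH2 shRNA over control) were computed with edgeR 4.0.16 in R 4.3.3: filterByExpr kept 16859 of 58884 genes, the robust quasi-likelihood test had group as its only term, and p-values were Benjamini-Hochberg adjusted over all 16859, at a threshold of 0.05. Standard errors were derived from each fold change and its F statistic. No pair of libraries within a group agreed within sampling noise (chi-square per degree of freedom 3.18 to 17.6). Segments were found by dynamic programming on absolute deviations from segment medians, at least 10 genes each, 1 to 6 segments, by the smallest BIC. The fit and the segmentation were tested on simulated data.

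Members and gene groups were chosen with earlier results of these data known. Named genes are EZH2, the 10 highest and 10 lowest members among those called, 5 genes on each side of the start limit and of the segment end, 3 on each side of the count minimum, the 5 highest by FPKM, and up to 4 per gene group by p; since 7 members fell, the 10 lowest called include SNX5, TBC1D20 and PRNP. Further genes were named after their values were seen, to complete a group, pair or family. Alternatives were other scalings, filters, DESeq2 1.42.0, limma 3.58.1 on log2 FPKM, a replicate block, leaving out each library, and other segmentation settings. Depth limits counting error only.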

Additional observations from a re-analysis of the deposited data

How the results depend on the processing

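The median of the members stayed above 0 in every alternative tried. Their median log2 fold change was 0.27 with upper-quartile factors, 0.19 with limma on log2 of FPKM + 1, and 0.24 to 0.27 on leaving out each library in turn; the segment inside has the same genes and values. The median of the chromosome 20 genes past the 25 Mb limit, which include the 7 before the gap, was -0.0882 in the main fit. This median was -0.101 with library size only, -0.0669 with upper-quartile factors and -0.0793 with a filter of 1 CPM in 3 libraries. DESeq2 gave -0.0959, limma on FPKM + 1 and FPKM + 0.1 gave -0.0734 and -0.0965, and a replicate block gave -0.0773. On leaving out each library it lay between -0.0975 and -0.0695. Past the gap alone the median was -0.0939 in the main fit. Members called higher ranged from 51 to 57 and lower from 6 to 7 on leaving out each library, and were 54 and 6 with DESeq2 and 52 and 8 with FPKM + 1. Of the 61 higher calls 48 were kept in all 6 leave-one-out fits, and of the 7 lower calls 6. With both arms segmented, the end was at 25673195 (ZNF337) in 20 of 20 settings. With the members' median taken off, 18 called members changed sign, 6 of them named by the rule: SNX5 -0.14, TBC1D20 -0.13, PRNP -0.13, CSNK2A1 -0.0554, CDC25B -0.0478 and FKBP1A -0.0146, which follows from the subtraction. Title numbers 3 and 4 occur in both groups, and the deviations of same-numbered libraries correlated across genes at r = 0.11 and 0.12; the labels do not say that numbers pair libraries. Numbers 1 and 5 occur in 1 group each, so under a replicate block the fold changes rest on the libraries numbered 3 and 4. With the number as a replicate block, 58 members were higher and 7 lower, 56 of the 61 higher calls were kept, and those lost include SDCBP2 (log2 fold change 0.54, edgeR adjusted p = 0.103), SNX5 and PRNP. Under the block EZH2 had a log2 fold change of -0.90. EZH2 ranged from -0.95 to -0.88 on leaving out each library. Low members such as ANKEF1, SIRPG, SDCBP2 and CRLS1 have standard errors between 0.20 and 0.35.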
